A study of Mus musculus with 8 samples.

Results

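The comparison described here asks whether RANKL changes gene expression in mouse macrophages to the same extent when the cells carry a short hairpin against Tmbim6 as when they carry the hairpin labelled NCsh. For each gene, the RANKL response in NCsh libraries was subtracted from the RANKL response in TMBIM6sh libraries. The rule takes every gene whose mean reached 5 RPKM in 1 or more of the 4 groups and that has an exon length of at least 300 bases, which gave 7941 genes of the 24940 listed. RPKM is the number of reads, here called tags, scaled to the exon length of the gene and to the tags of the library. Of these genes 7810 are protein-coding and 97 noncoding, and 6950 reached 5 RPKM in all 4 groups. A230020J21Rik (5.002 RPKM in its highest group) and Fance (5.003) lay just inside the limit, and Ryk and Fbxo46 (both 4.998) just outside.

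The cells were bone marrow-derived macrophages of C57BL/6 mice aged 6 to 8 weeks, grown in M-CSF, at 5 ng/ml for the first 16 h and then at 30 ng/ml for 3 days, in all groups. The 4 groups were NCsh without RANKL, NCsh with RANKL, TMBIM6sh without RANKL and TMBIM6sh with RANKL, with 2 libraries each, and RANKL was given at 100 ng/ml for 24 h. NCsh is not spelled out. With 1 hairpin per arm, what a hairpin does through Tmbim6 and what it does otherwise cannot be told apart. The labels do not say whether duplicates came from separate animals or cultures, and the p-values therefore measure only the spread between these libraries. Depth was 25475000 to 28595000 tags per library. The macrophage markers were present in every library (summed level 9325 to 13500 RPKM, led by the lysozyme gene Lyz2). NCsh library 2 without RANKL stood apart from its duplicate in relation to gene length: its log2 values were higher by a median of 0.268 in the shortest of 10 groups of genes by length and lower in the longest (median -0.129).

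RANKL is the cytokine that turns macrophage precursors into bone-resorbing osteoclasts. It binds RANK, which recruits TRAF adaptors and switches on the canonical and noncanonical NF-kappaB pathways, MAP kinases and AP-1, and, together with calcium signals from costimulatory receptors, the transcription factor NFATc1. NFATc1 then drives the genes of cell fusion and bone resorption. TMBIM6, also called BAX inhibitor 1, is a membrane protein of the endoplasmic reticulum that leaks calcium and protects cells against death. A difference of responses tests whether the hairpin changes how far a gene moves with RANKL, which is a separate question from a difference in its starting level. On the scale used here, log2(RPKM + 1), the added 1 shrinks the responses of low genes. For such genes the starting level therefore still enters the difference of responses.

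Tmbim6 itself stood at 330 and 334 RPKM in NCsh libraries without RANKL and at 309 and 321 with RANKL. In TMBIM6sh libraries it was at 11.1 and 11.7 RPKM without and 10.0 and 10.5 with RANKL. Every TMBIM6sh library thus lay far below every NCsh library in both RANKL states, and the difference of its responses was -0.07 (95% interval -0.25 to 0.11, adjusted p = 0.846).

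None of the 7941 genes passed an adjusted p of 0.05 for the difference of responses in limma with Benjamini-Hochberg adjustment. Over all 11040 genes tested, 0.00906% were called, a single small nucleolar RNA shorter than the length limit. The smallest adjusted p among the 7941 genes was 0.0725, for Fgl2, and the next was 0.51. At an unadjusted p under 0.05 there were 150 genes with a more positive response in TMBIM6sh libraries and 493 with a more negative one. The shares over all genes tested were 1.97% and 5.8%. This split changed with the scaling: with median-ratio scaling between libraries the counts were 376 and 241, and the share of genes with a difference above 0 went from 36.5% to 50.8%. It also changed with single libraries. The more positive genes numbered 550 without NCsh library 1 without RANKL and 84 without TMBIM6sh library 2 with RANKL. The more negative ones numbered 224 without TMBIM6sh library 2 without RANKL, 289 without NCsh library 1 with RANKL and 325 without TMBIM6sh library 1 with RANKL.

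The intervals show how large a difference these libraries leave room for. The median difference was -0.0471 on the log2(RPKM + 1) scale, with quartiles of -0.138 and 0.0492. It was 0.00262 after median-ratio scaling, -0.0165 without TMBIM6sh library 1 with RANKL and -0.0759 without library 2 of that group. In the fit of all 8 libraries the median 95% interval reached 0.259 to either side, a factor of 1.20. For 7245 genes (91.2%) the interval stayed within 1.5-fold in either direction, and for 7914 (99.7%) within 2-fold. These are folds of RPKM + 1, and for low genes the fold of RPKM itself can be larger. The intervals also leave out the shifts seen with other scaling or without single libraries. An estimate past 1.5-fold was found for 7 genes in the positive and 6 in the negative direction. The most negative was Snhg3, a noncoding host of small nucleolar RNA, chosen here after its value was seen. Its difference was -1.18 (adjusted p = 0.515), from 1.83 and 2.75 RPKM without and 6.60 and 4.43 with RANKL in NCsh libraries, against 4.06 and 3.88 without and 2.87 and 3.88 with RANKL in TMBIM6sh libraries. All 8 values are low and the duplicates of 3 groups lie well apart. Snhg3 reached a mean of 5 RPKM only in NCsh libraries with RANKL, so it was taken in through that group alone. A high level in that group also makes the difference more negative, so for Snhg3 the rule favoured this direction. Of the genes taken in, 307 reached 5 RPKM in only 1 of the 4 groups. Taking each RANKL library against each library without RANKL gives 4 possible responses per hairpin, and for 1894 genes (23.9%) the ranges of the 2 hairpins did not overlap, where 22.8% of all genes tested had such ranges.

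**Figure D1:**
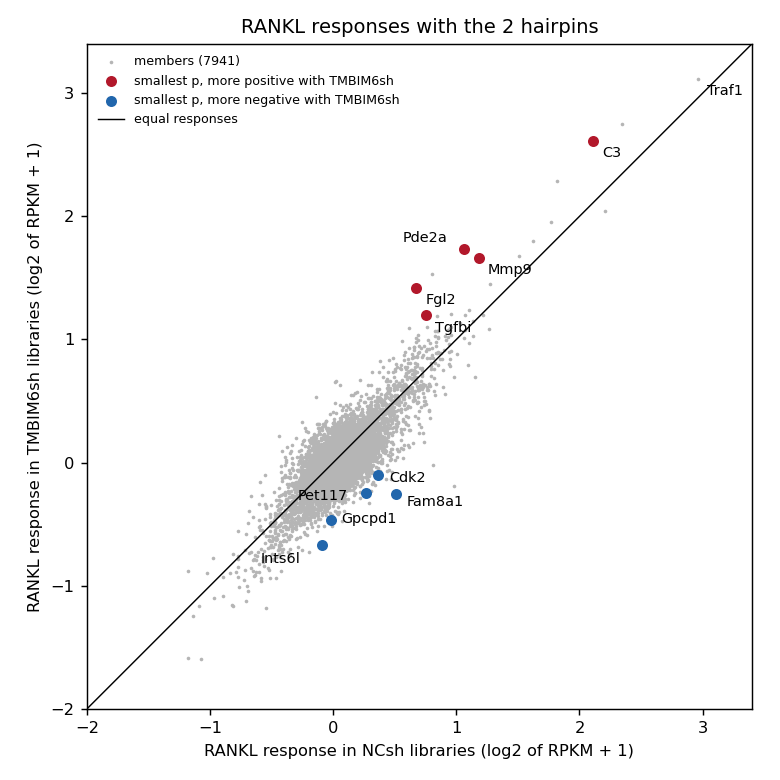
RANKL response in TMBIM6sh libraries (vertical, log2 of RPKM + 1) against the response in NCsh libraries (horizontal, same scale) for 7941 genes; points are genes, coloured points the 5 with the smallest p in each direction, and the line marks equal responses. The cloud follows the line, and the 5 red genes lie above it with rises in both hairpins.

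Fgl2 encodes a fibrinogen-like protein that macrophages secrete or carry on the surface, with procoagulant and immune-regulating activity. In NCsh libraries it was at 7.39 and 6.87 RPKM without RANKL and 12.1 and 11.9 with RANKL. In TMBIM6sh libraries it was at 22.9 and 21.7 RPKM without and 61.4 and 61.0 with RANKL. The groups did not overlap, and both TMBIM6sh groups lay above both NCsh groups. RANKL raised it by 0.68 in NCsh (SE 0.06, adjusted p = 2.77e-04) and by 1.42 in TMBIM6sh libraries (adjusted p = 2.6e-06), a ratio of means of 1.68 against 2.75. The difference of 0.74 (SE 0.09, 95% interval 0.54 to 0.95) missed the threshold (adjusted p = 0.0725). It passed with a pseudocount of 5 (0.79, adjusted p = 0.0113) and with limma voom on the tags recovered from the RPKM steps (0.71, adjusted p = 0.00469), and over the other alternatives its adjusted p was 0.0581 to 0.48.

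The 4 other genes with the smallest p in the positive direction are secreted or signalling genes, and all 4 rose with RANKL in both hairpins. C3, the central complement component, was at 10.1 and 9.15 RPKM in NCsh libraries without and 46.1 and 43.7 with RANKL, and at 7.91 and 8.66 without and 55.3 and 56.4 with RANKL in TMBIM6sh libraries. Its lowest levels were thus in TMBIM6sh libraries without RANKL and its highest in those with RANKL (difference 0.50, 95% interval 0.28 to 0.73, adjusted p = 0.51). Mmp9, the gelatinase with which osteoclasts cut matrix, was at 12.7 and 12.7 RPKM without and 29.7 and 30.6 with RANKL in NCsh libraries, and at 22.2 and 21.6 without and 69.4 and 73.3 with RANKL in TMBIM6sh libraries. Both TMBIM6sh levels lay above the NCsh level of the same RANKL state (difference 0.48, 95% interval 0.29 to 0.67, adjusted p = 0.51). Tgfbi, an adhesive matrix protein induced by TGF-beta, showed the reverse order of levels. It was at 44.5 and 45.6 RPKM without and 74.5 and 78.8 with RANKL in NCsh libraries, and at 13.3 and 13.4 without and 30.3 and 33.5 with RANKL in TMBIM6sh libraries (difference 0.44, adjusted p = 0.51). Pde2a, a cyclic nucleotide phosphodiesterase, was at 7.32 and 6.26 RPKM without and 16.7 and 14.0 with RANKL in NCsh libraries, and at 5.99 and 5.40 without and 20.6 and 22.0 with RANKL in TMBIM6sh libraries (difference 0.67, adjusted p = 0.51). The Pde2a groups did not overlap, with the lowest and the highest levels both in TMBIM6sh libraries.

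In the negative direction the 5 genes with the smallest p differed in how they got there. Cdk2, the kinase that drives entry into DNA replication, was at 13.1 and 14.0 RPKM without and 17.6 and 17.8 with RANKL in NCsh libraries, against 11.3 and 11.5 without and 10.9 and 10.2 with RANKL in TMBIM6sh libraries. It rose in NCsh libraries (0.36, adjusted p = 0.00694) and stood at -0.10 in TMBIM6sh libraries (adjusted p = 0.407), and the difference was -0.46 (95% interval -0.68 to -0.24, adjusted p = 0.51). Fam8a1, a membrane protein of the HRD1 ubiquitin ligase complex in the endoplasmic reticulum, was at 8.33 and 8.83 RPKM without and 13.0 and 12.3 with RANKL in NCsh libraries, and at 7.96 and 6.81 without and 6.68 and 5.41 with RANKL in TMBIM6sh libraries. Its NCsh response passed the test and its TMBIM6sh response did not (adjusted p = 0.0106 and 0.138, difference -0.76, adjusted p = 0.51). Pet117, a small mitochondrial factor for assembly of cytochrome c oxidase, was the single gene called in opposite directions: it went from 11.0 and 12.0 to 14.4 and 13.6 RPKM in NCsh libraries (0.26, adjusted p = 0.0361) and from 11.3 and 10.9 to 9.26 and 9.08 RPKM in TMBIM6sh libraries (-0.25, adjusted p = 0.0447). The difference itself was -0.51 (adjusted p = 0.51), and the values of this short gene of 319 bases rest on 74 to 124 tags per library.

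The remaining pair moved in TMBIM6sh libraries. Ints6l, related to a subunit of the Integrator complex that processes RNA ends, was at 5.36 and 5.79 RPKM without and 5.25 and 5.09 with RANKL in NCsh libraries. In TMBIM6sh libraries it fell from 9.09 and 9.52 to 5.37 and 5.61 RPKM (-0.67, adjusted p = 4.49e-04). With RANKL its levels in the 2 hairpins were therefore close, and without RANKL the TMBIM6sh libraries lay above (difference of responses -0.58, adjusted p = 0.51). Gpcpd1, an enzyme of choline phospholipid breakdown, kept to 15.1 to 16.3 RPKM in the other 3 groups and was at 11.7 and 11.2 RPKM in TMBIM6sh libraries with RANKL (response -0.46, adjusted p = 0.00121, difference -0.44, adjusted p = 0.51).

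**Figure D2:**
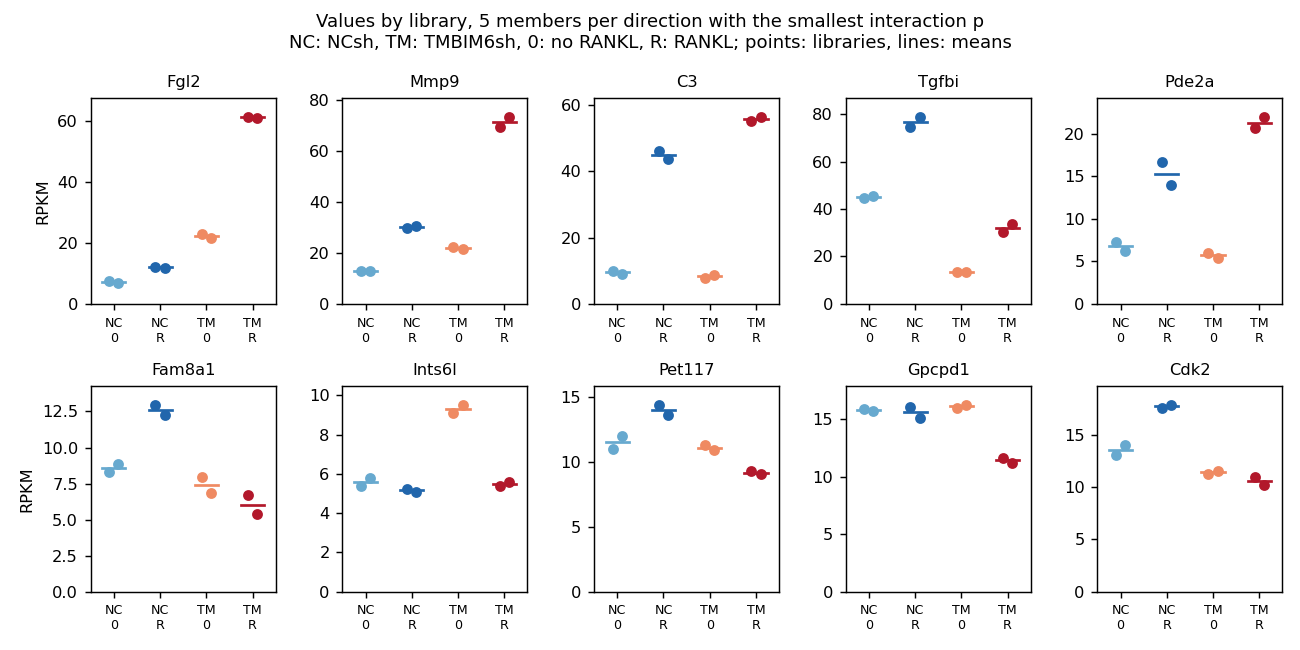
RPKM (vertical) in each of the 8 libraries for the 5 genes per direction with the smallest interaction p; points are libraries, lines group means, and each panel starts at 0. Fgl2 reaches 61.4 and 61.0 RPKM in TMBIM6sh libraries with RANKL against 12.1 and 11.9 in NCsh libraries with RANKL.

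The promoters of Fgl2 and C3, which lie at the positive end, and of Cdk2, at the negative end, are shown from RefSeq (GRCm38.p6, 250 bases before to 50 after the start, 5′ to 3′ on the gene's strand) to set the letters at opposite ends beside each other. Capitals mark matches on either strand to 11 motifs: the AP-1 site TGANTCA, the kappaB site, the NFAT core TGGAAA, the CCAAT box CCAAT, the E2F site TTCCCGC, the ATF4 element TGATGCAA, the PU.1 site GAGGAA, the E-box CACGTG, the CRE TGACGTCA, the CHR element TTTGAA and the ISRE. They are Fgl2 at chr5:21372423-21372722 (plus strand), C3 at chr17:57228087-57228386 (minus strand) and Cdk2 at chr10:128705002-128705301 (minus strand).
Fgl2: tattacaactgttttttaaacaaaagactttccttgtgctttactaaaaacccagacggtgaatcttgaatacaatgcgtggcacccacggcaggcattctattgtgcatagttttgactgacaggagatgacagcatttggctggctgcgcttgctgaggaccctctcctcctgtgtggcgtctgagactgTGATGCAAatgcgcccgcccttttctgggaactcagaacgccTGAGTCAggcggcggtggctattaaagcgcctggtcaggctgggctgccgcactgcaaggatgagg
C3: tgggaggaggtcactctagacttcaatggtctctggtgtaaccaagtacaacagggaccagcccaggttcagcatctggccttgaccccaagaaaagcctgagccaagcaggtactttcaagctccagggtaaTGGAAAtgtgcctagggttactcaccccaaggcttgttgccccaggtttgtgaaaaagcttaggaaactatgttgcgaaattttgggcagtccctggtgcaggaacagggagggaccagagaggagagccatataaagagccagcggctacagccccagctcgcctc
Cdk2: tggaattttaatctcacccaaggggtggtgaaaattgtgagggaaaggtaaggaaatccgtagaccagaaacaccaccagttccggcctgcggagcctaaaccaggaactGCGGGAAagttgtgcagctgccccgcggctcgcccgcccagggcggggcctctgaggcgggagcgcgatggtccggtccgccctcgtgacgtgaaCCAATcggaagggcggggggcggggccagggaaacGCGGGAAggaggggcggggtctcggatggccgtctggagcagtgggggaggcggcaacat
The Fgl2 window holds an AP-1 match TGAGTCA (bases 235 to 241) and an ATF4 element (bases 193 to 200), the C3 window an NFAT core, and the Cdk2 window a pair of E2F matches and a CCAAT box. Of the 6324 genes with a promoter entry, 4.95% held an AP-1 match, 0.601% the ATF4 element, 15.9% the NFAT core, 8.82% the E2F site and 38.1% the CCAAT box. The kappaB site, found in 10.2%, is not among the letters of these 3 windows. These matches are a description of the letters only, and factor binding was not measured.

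Among the genes of RANK signalling 0 differences of responses were called. Tnfrsf11a, which encodes RANK, was at 40.5 and 39.1 RPKM without and 40.2 and 41.3 with RANKL in NCsh libraries, and at 39.9 and 41.6 without and 45.6 and 46.4 with RANKL in TMBIM6sh libraries (difference 0.14, 95% interval -0.04 to 0.32, adjusted p = 0.697). TMBIM6sh libraries with RANKL lay above the other 3 groups, which overlapped. Of the 25 genes of RANK and costimulatory signalling, 10 had a difference above 0 (7 to 14 over the alternatives, with the median on either side of 0), and 0 were called. The smallest p in that list belonged to Pirb, an inhibitory immunoglobulin-like receptor (-0.26, adjusted p = 0.609), and to the kinases Fyn (-0.24, adjusted p = 0.609) and Tec (-0.26, adjusted p = 0.609), while Traf2, an adaptor of the receptor complex, stood at 0.26 (adjusted p = 0.624).

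Most genes of the noncanonical NF-kappaB list, which includes targets of the pathway, rose in both hairpins. Of its 10 genes, 8 rose in NCsh and 8 in TMBIM6sh libraries, beside 11% and 8.53% of all genes tested, with median responses of 0.630 and 0.628. Traf1, an adaptor of TNF receptors, went from 2.05 and 1.998 to 22.5 and 22.7 RPKM in NCsh libraries and from 1.48 and 1.76 to 21.3 and 22.0 RPKM in TMBIM6sh libraries. All 4 RANKL libraries thus lay between 21.3 and 22.7 RPKM (difference 0.15, 95% interval -0.10 to 0.40, adjusted p = 0.759). Nfkb2, the precursor of the p52 subunit, went from 20.2 and 19.7 to 64.4 and 62.8 RPKM and from 20.6 and 19.9 to 71.0 and 75.5 RPKM (difference 0.18, 95% interval -0.01 to 0.36, adjusted p = 0.639). Its starting levels overlapped, and the TMBIM6sh libraries with RANKL were the highest. Birc3, an inhibitor of apoptosis (0.17, adjusted p = 0.761), and Tnfrsf1b, a TNF receptor (0.10, adjusted p = 0.774), rose in both hairpins as well. Among 16 canonical NF-kappaB genes the kinases Ikbkb (-0.27, adjusted p = 0.609) and Chuk (-0.30, adjusted p = 0.609) had the smallest p, and 0 were called.

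The transcription factors of osteoclast formation and the genes they serve showed no called difference either. Nfatc1 was at 6.60 and 5.87 RPKM without and 6.24 and 6.92 with RANKL in NCsh libraries, and at 6.21 and 5.58 without and 5.77 and 5.85 with RANKL in TMBIM6sh libraries, so that the groups with and without RANKL overlapped in each hairpin (difference -0.08, 95% interval -0.37 to 0.20). Fos, a subunit of AP-1, rose from 52.5 and 50.002 to 86.8 and 83.8 RPKM in NCsh and from 57.6 and 56.2 to 97.1 and 98.1 RPKM in TMBIM6sh libraries. The 2 rises were 0.72 and 0.77 (difference 0.04, 95% interval -0.14 to 0.22). Its relatives Fosl1 (difference 0.38, adjusted p = 0.609) and Junb (0.15, adjusted p = 0.673) also rose in both. Myc, a growth-promoting factor, rose from 10.8 and 11.2 to 24.4 and 24.8 RPKM in NCsh and from 14.0 and 12.8 to 22.8 and 25.1 RPKM in TMBIM6sh libraries. The RANKL levels overlapped and the starting level was higher with TMBIM6sh (difference -0.30, 95% interval -0.53 to -0.07, adjusted p = 0.609). Among the repressors of the fate, Irf8 fell in both hairpins, from 52.99 and 51.8 to 35.9 and 36.0 RPKM and from 53.3 and 53.7 to 30.9 and 34.6 RPKM (difference -0.16, 95% interval -0.37 to 0.05), and Bcl6 had a difference of -0.23 (adjusted p = 0.624).

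Of 16 genes for fusion and resorption, 0 were called and 6 had a difference above 0 (37.5%, median -0.0587). Over all 7941 genes the share was 36.5% and the median -0.0471, so the list stood near all genes. The values of the list changed with single libraries. Without TMBIM6sh library 1 with RANKL 9 of 16 lay above 0 (median 0.0103), and 4 of 16 without library 2 of that group (median -0.0994). The median of the list was -0.00575 after median-ratio scaling. It was -0.0357 without NCsh library 2 without RANKL, and -0.0349 and -0.0326 without NCsh library 1 and library 2 with RANKL. Acp5, the tartrate-resistant acid phosphatase that stains osteoclasts, was at 57.1 and 64.7 RPKM without and 56.0 and 64.1 with RANKL in NCsh libraries, and at 50.9 and 53.2 without and 55.8 and 64.4 with RANKL in TMBIM6sh libraries. TMBIM6sh libraries without RANKL were the lowest and the other 3 groups overlapped (difference 0.22, 95% interval -0.07 to 0.52). Atp6v0d2, a proton pump subunit used in fusion, fell from 14.9 and 14.8 to 12.2 and 12.1 RPKM in NCsh and from 10.3 and 9.59 to 6.94 and 6.47 RPKM in TMBIM6sh libraries (difference -0.23, 95% interval -0.46 to -0.01, adjusted p = 0.633). Src, the kinase behind the ruffled border, rose by 0.67 in each hairpin, from 5.87 and 5.50 to 9.88 and 9.37 RPKM and from 6.93 and 6.40 to 10.5 and 12.0 RPKM (difference 0.00, 95% interval -0.27 to 0.28). Ostm1, needed for lysosomal chloride transport in resorption, stood at -0.28 (adjusted p = 0.609) and the tetraspanin Cd9 at -0.29 (adjusted p = 0.614). Dcstamp, the fusion receptor, is not among the 7941 genes, since its highest library held 1.61 RPKM.

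**Figure D3:**
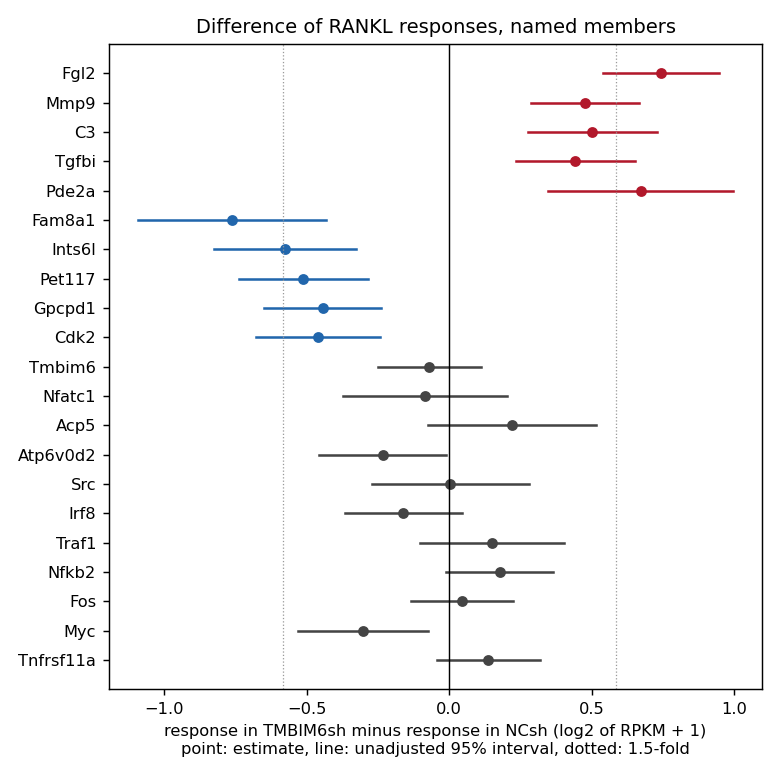
Difference of RANKL responses (TMBIM6sh minus NCsh, log2 of RPKM + 1, horizontal) for 21 named genes; points are estimates, lines unadjusted 95% intervals and dotted lines 1.5-fold. The 10 coloured genes were chosen by p; the interval of Src runs from -0.27 to 0.28.

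The 2 responses were also counted separately. In NCsh libraries RANKL raised 981 of the 7941 genes and lowered 394, beside 11% and 3.98% of all genes tested. In TMBIM6sh libraries it raised 767 and lowered 670, beside 8.53% and 6.89%. The NCsh split depended on scaling, with 636 higher and 773 lower after median-ratio scaling. Without NCsh library 1 with RANKL the NCsh counts were 425 and 176, and without NCsh library 2 with RANKL 551 and 198. The TMBIM6sh counts were 442 and 311 without TMBIM6sh library 1 without RANKL, 429 and 274 without library 2 of that group, 442 higher without TMBIM6sh library 2 with RANKL and 315 lower without TMBIM6sh library 1 with RANKL. In the fit of all 8 libraries 895 genes were called in both hairpins in the same direction (579 higher, 316 lower), 1020 in 1 hairpin only and 6025 in neither. For the 401 genes called higher in NCsh only, the median response was 0.321 in NCsh and 0.139 in TMBIM6sh libraries, so that the median kept its sign. For the 188 called higher in TMBIM6sh only, the medians were 0.164 and 0.329. The genes of both classes were picked by these same responses, so a gap in this direction follows from the choice. In each of these classes 0 differences were called.

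Among immune effector genes 0 differences were called. Tnf, the inflammatory cytokine, fell from 47.2 and 50.5 to 35.6 and 33.6 RPKM in NCsh and from 75.3 and 73.4 to 43.3 and 42.2 RPKM in TMBIM6sh libraries. It lay above the NCsh level in both RANKL states, by 0.60 without and 0.30 with RANKL on the log2 scale (difference of responses -0.30, adjusted p = 0.596). Of 14 cytokine and receptor genes 4 had a difference above 0, with a median of -0.139 against -0.0471 for all 7941 genes. The median was -0.0408, with 6 of 14 above 0, without NCsh library 1 with RANKL, -0.0532 without TMBIM6sh library 1 with RANKL, -0.0884 without NCsh library 2 without RANKL and -0.0891 after median-ratio scaling. Il18bp, which traps interleukin 18 (-0.53, adjusted p = 0.596), and Il10ra, a chain of the interleukin 10 receptor (-0.27, adjusted p = 0.609), were at the negative end, and Il1rn, the interleukin 1 receptor antagonist (0.30, adjusted p = 0.609), at the positive end. Ccl7, a monocyte-attracting chemokine, fell from 21.2 and 22.7 to 9.34 and 8.90 RPKM in NCsh and from 15.1 and 16.2 to 7.83 and 8.19 RPKM in TMBIM6sh libraries (difference 0.30, adjusted p = 0.609). Among 16 Fc and C-type lectin receptors 5 lay above 0 (9 without NCsh library 1 without RANKL and 2 without its duplicate), with Cd302 (-0.33, adjusted p = 0.609), Clec5a (-0.28, adjusted p = 0.609) and Fcgr3, a receptor for immunoglobulin G (-0.27, adjusted p = 0.633), at the smallest p. Among 28 interferon-stimulated genes 16 lay above 0 (13 to 17 over the alternatives, with the median on either side of 0), Dhx58, a sensor of viral RNA, stood at -0.39 (adjusted p = 0.609), and 0 were called.

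Among genes of iron handling, lipid efflux and matrix proteases 0 differences of responses were called. Slc40a1, the iron exporter ferroportin, fell from 15.6 and 15.8 to 9.76 and 8.69 RPKM in NCsh and from 68.7 and 72.8 to 31.5 and 32.3 RPKM in TMBIM6sh libraries (difference -0.41, adjusted p = 0.545). Even with RANKL the TMBIM6sh libraries lay above all NCsh libraries. Plau, the urokinase plasminogen activator, fell from 61.2 and 57.8 to 33.7 and 32.6 RPKM and from 133 and 146 to 58.8 and 65.1 RPKM (difference -0.33, adjusted p = 0.609). Ch25h, which makes 25-hydroxycholesterol, fell from 2.97 and 4.21 to 2.01 and 2.23 RPKM and from 11.3 and 11.0 to 4.53 and 4.21 RPKM (difference -0.64, adjusted p = 0.57). The NCsh duplicates of Ch25h without RANKL lie further apart than those of the other 3 groups. Ch25h reached a mean of 5 RPKM only in TMBIM6sh libraries without RANKL, so it was taken in through its highest group alone. A high level in that group also makes the difference more negative, so for Ch25h the rule favoured this direction. Nr1h3, the oxysterol receptor LXR alpha, rose by 0.49 and 0.85 (difference 0.36, adjusted p = 0.561), and Lpl, lipoprotein lipase, fell by 0.43 and 0.70 (difference -0.27, adjusted p = 0.609). Htra1, a secreted protease, rose from 0.56 and 0.55 to 7.76 and 6.14 RPKM and from 0.67 and 0.54 to 9.57 and 9.96 RPKM (difference 0.40, adjusted p = 0.633). Fscn1, the actin-bundling protein fascin, rose from 1.15 and 1.26 to 3.41 and 2.37 RPKM and from 1.19 and 1.26 to 5.58 and 5.28 RPKM. Its starting levels overlapped and its RANKL levels did not (difference 0.73, 95% interval 0.30 to 1.16, adjusted p = 0.561). Fscn1 reached a mean of 5 RPKM only in TMBIM6sh libraries with RANKL, so it was taken in through that group alone. A high level in that group also makes the difference more positive, so for Fscn1 the rule favoured this direction.

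Most cell division genes rose with RANKL in both hairpins, and 0 differences of responses were called among them. Of 31 genes of DNA replication and nucleotide supply, 25 rose in NCsh and 27 in TMBIM6sh libraries, where 1 fell, and of 32 genes of G2 and mitosis 30 and 29 rose. Of all genes tested 11% rose in NCsh, and 8.53% rose and 6.89% fell in TMBIM6sh libraries. The summed level of the replication genes was 581.4 and 611.3 RPKM without and 778.6 and 776.3 with RANKL in NCsh libraries, and 527.1 and 533.8 without and 661.4 and 676.3 with RANKL in TMBIM6sh libraries. The order of the 4 groups was the same in both duplicates, with TMBIM6sh below NCsh in each RANKL state. The median difference of responses was 0.0798 (0.0256 with a pseudocount of 5, 0.13 after median-ratio scaling), and 24 of 31 lay above 0 (19 to 27 over the alternatives). For G2 and mitosis it was 0.053 with 19 of 32 above 0. That median turned to -0.0452, with 13 of 32 above 0, at a pseudocount of 5, and was 0.113 with voom. It was 0.0171 without TMBIM6sh library 2 without RANKL, 0.0237 without NCsh library 1 with RANKL and 0.0339 without NCsh library 2 without RANKL. Mcm7, a subunit of the replicative helicase, was at 19.2 and 19.6 RPKM without and 32.6 and 30.3 with RANKL in NCsh libraries, and at 14.2 and 15.4 without and 29.9 and 31.8 with RANKL in TMBIM6sh libraries. The RANKL levels overlapped and the starting levels did not (difference 0.34, adjusted p = 0.597). Fen1, which trims Okazaki fragments (0.30, adjusted p = 0.609), and Ccnb2, a mitotic cyclin (0.32, adjusted p = 0.624), were of similar size, and both rose in each hairpin. In bulk RNA fewer dividing cells and less RNA of these genes per cell cannot be told apart.

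Since TMBIM6 sits in the endoplasmic reticulum, its stress and calcium genes were also read. Hsp90b1, a chaperone of the compartment, was at 73.9 and 78.5 RPKM without and 97.6 and 95.3 with RANKL in NCsh libraries, and at 58.5 and 60.9 without and 46.5 and 59.3 with RANKL in TMBIM6sh libraries. The TMBIM6sh duplicates with RANKL lie apart and 1 of them falls within the range without RANKL (difference -0.52, 95% interval -0.83 to -0.21, adjusted p = 0.57). Hspa5, the chaperone BiP, had 0.21 (adjusted p = 0.639) and the oxidase Ero1l -0.23 (adjusted p = 0.609), so that named chaperone genes lay on both sides of 0. Of 27 genes on the list 8 lay above 0 (17 after median-ratio scaling, 15 without TMBIM6sh library 1 with RANKL and 6 without library 2 of that group), and 0 were called. In the calcium list of 19 genes, the release channel Itpr3 stood at -0.31 (adjusted p = 0.608) and the ion channel kinase Trpm7 at -0.24 (adjusted p = 0.633). In that list 8 genes lay above 0 (3 to 13 over the alternatives, with the median on either side of 0), and 0 were called. Of 18 genes of the TMBIM and BCL-2 families, the survival genes Mcl1 (-0.22, adjusted p = 0.609) and Bcl2l1 (-0.25, adjusted p = 0.624) had the smallest p. Within these families 8 genes lay above 0 (6 to 11 over the alternatives, with the median on either side of 0), and 0 were called. Mgst1 (-0.33, adjusted p = 0.57) and Gsta3 (-0.41, adjusted p = 0.609), enzymes of glutathione conjugation, had the smallest p of 33 NRF2 and antioxidant genes. Of these 16 lay above 0, against 20 without NCsh library 1 without RANKL and 8 without its duplicate.

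**Figure D4:**
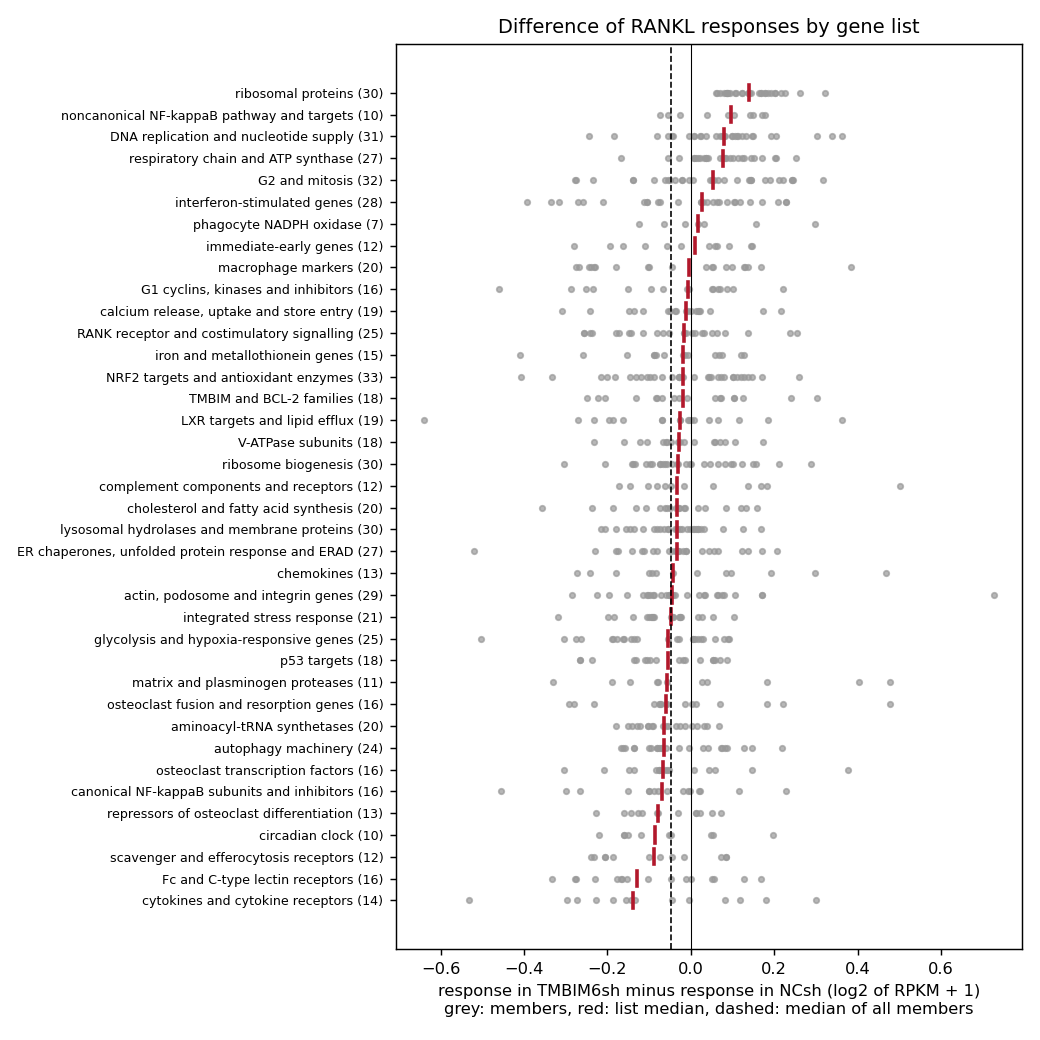
Difference of RANKL responses (TMBIM6sh minus NCsh, log2 of RPKM + 1, horizontal) for 38 gene lists with at least 5 members; grey points are genes, red bars list medians and the dashed line the median of all 7941 genes, -0.0471. All 30 ribosomal protein genes stand above 0 with all 8 libraries, against 12 of 30 without NCsh library 2 without RANKL.

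Of the 38 lists with at least 5 members, ribosomal protein and respiratory chain genes had the largest share of members on 1 side of 0, and this changed when a single library was left out. All 30 ribosomal protein genes had a difference above 0 (median 0.14), with 0 called. Their summed level was 13080 and 16150 RPKM in NCsh libraries without RANKL, 13380 and 13990 with RANKL, 14130 and 13530 in TMBIM6sh libraries without and 13790 and 15300 with RANKL. NCsh library 2 without RANKL was thus the highest of all 8 and its duplicate the lowest. Without NCsh library 2 without RANKL 12 of 30 lay above 0 and the median was -0.0141, and without its duplicate the median was 0.297. Without TMBIM6sh library 2 with RANKL 27 of 30 lay above 0 (median 0.0611), and without its duplicate the median was 0.222. Of 27 respiratory chain genes 24 lay above 0. Without NCsh library 2 without RANKL 8 of 27 did (median -0.0363), and 17 did without TMBIM6sh library 2 with RANKL (median 0.0172).

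These genes are short, with a median exon length of 838 bases for the ribosomal proteins and 1153 for the respiratory chain against 2663 for all 7941 genes, and the difference of responses fell with exon length over all 7941 genes. Spearman's rho across genes was -0.322 with all libraries, 0.0383 without NCsh library 2 without RANKL and -0.535 without its duplicate. Genes share libraries and are not independent, so no p is given. The median difference was 0.0852 in the shortest of the 10 groups (319 to 1029 bases) and -0.104 in the longest (5793 to 19770 bases). Without NCsh library 2 without RANKL the 2 values were -0.0444 and -0.0431, and without its duplicate 0.219 and -0.17. The shortest group was at 0.0316 without TMBIM6sh library 2 with RANKL and at 0.137 without library 1 of that group. The longest genes had a median response of 0.104 in NCsh and 0.0101 in TMBIM6sh libraries. Over all 7941 genes the median difference was -0.057 without NCsh library 2 without RANKL, and 33.3% of them lay above 0.

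**Figure D5:**
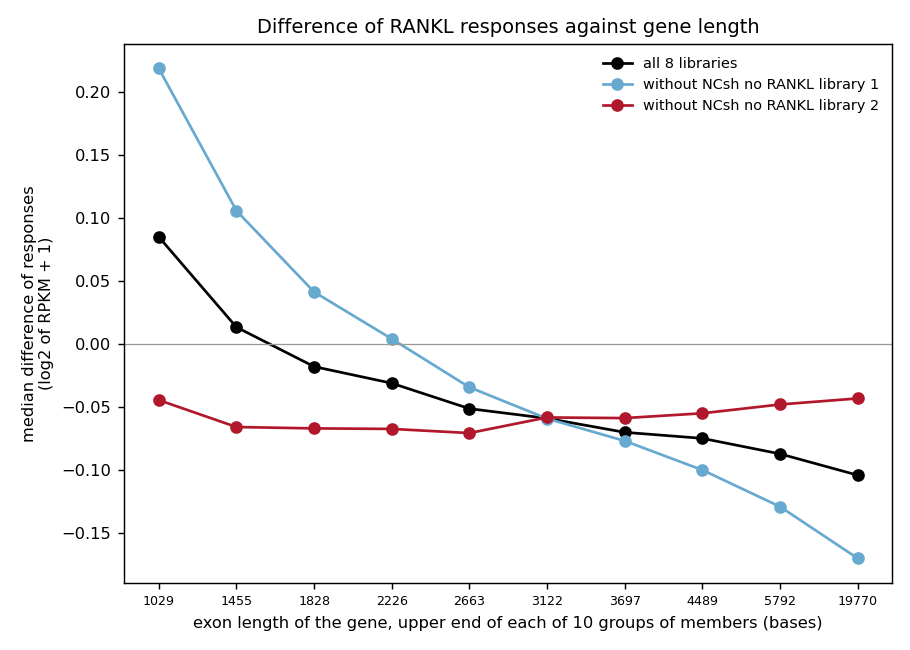
Median difference of RANKL responses (vertical, log2 of RPKM + 1) in 10 groups of genes by exon length (horizontal, upper end of each group in bases), with all 8 libraries and without either NCsh library that had no RANKL. The line of all libraries falls from 0.0852 to -0.104, and the line without library 2 runs from -0.0444 to -0.0431.

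Markers of macrophages and of other cells were read as levels. The 20 macrophage markers had a median difference of -0.00486, with 10 above 0, against 6 without TMBIM6sh library 2 with RANKL (median -0.0671) and 6 without NCsh library 2 without RANKL (median -0.0641). The median was 0.0402 without TMBIM6sh library 1 with RANKL, 0.0324 without NCsh library 1 without RANKL and 0.0483 after median-ratio scaling. The scavenger receptor Cd36 (-0.23, adjusted p = 0.624) and Aif1 (0.39, adjusted p = 0.624) lay on opposite sides. Neutrophil markers summed to 27.8 to 36.3 RPKM in NCsh and 17.6 to 23.2 RPKM in TMBIM6sh libraries, led by S100a8, and 9 of 12 were under 1 RPKM in every library. Dendritic cell markers summed to 8.64 to 12.7 RPKM. Itgax made up most of that sum, and 8 of 10 were under 1 RPKM in every library. Of 13 lymphocyte and natural killer cell markers 10 were under 1 RPKM in every library and Il7r made up most of the sum: it was at 45.4 and 43.1 RPKM without and 39.7 and 38.8 with RANKL in NCsh libraries, and at 40.04 and 39.9 without and 27.7 and 27.2 with RANKL in TMBIM6sh libraries (difference -0.36, adjusted p = 0.533). Stromal and osteoblast markers summed to 4.90 to 6.09 RPKM, and erythroid, mast and basophil markers to at most 0.281 RPKM, with 8 of 14 at 0 in all libraries. Their part in the results was not tested.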

How the data were processed

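RNA sequencing of 8 libraries was deposited as 1 table of RPKM values, which the authors made with HOMER in mm10 with RefSeq genes, per the file headers: tags over exons on both strands, isoforms condensed to 1 entry per gene. The column heads say FPKM while the header command asks for RPKM. HISAT2 and DESeq2 are also named, per the submitters' processing notes; versions are not given in the sources used here. RANKL groups were read from the titles, since all samples carry the same treatment text. From the deposited RPKM, log2(RPKM + 1) was computed with no further scaling, and genes with at least 1 RPKM in at least 2 libraries were kept (11040). The fit used limma (3.58.1, in R 4.3.3) with group means, a spread shared by all groups and an intensity trend. There were 4 residual and 5.54 prior degrees of freedom, and Benjamini-Hochberg adjustment ran over all genes tested. Fold changes are on that log2 scale, which understates low genes. Low values were whole multiples of 1 tag within 0.1 tags in 100% of 443 to 478 values checked per library, which gave the depth. Counts without strand cannot separate a gene from an antisense partner. No permutation of 2 libraries against 2 can give a two-sided p below 0.333.

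The members, the 44 gene lists and the tests were chosen with earlier results of these data known. Named genes are Tmbim6, 12 osteoclast genes, the 5 with the smallest p per direction (since fewer than 5 were called), members called in opposite directions and up to 4 per list with the smallest p. Alternatives were pseudocounts of 0.1 and 5, no filter or one of 5 RPKM, median-ratio scaling, a replicate block, no intensity trend, limma voom on recovered tags, member limits of 2 and 10 RPKM, and leaving out each library. Intervals are unadjusted. The fit was also run on simulated tags, drawn independently with a fixed spread, and the outcome is not used here. Those tags held no gap between duplicates by gene length, unlike the NCsh libraries without RANKL.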

Additional observations from a re-analysis of the deposited data

Results flagged for a closer look

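Snord104, a small nucleolar RNA of 72 bases and therefore not among the 7941 genes, was the only one of the 11040 genes tested whose difference of responses passed the threshold: the RANKL effect differed between the hairpins by -2.88 (adjusted p = 0.00998). It was at 0.5 and 1.0 RPKM without and 5.5 and 3.4 RPKM with RANKL in NCsh libraries, and at 4.1 and 3.9 RPKM without and 1.1 and 1.1 RPKM with RANKL in TMBIM6sh libraries. At this length such levels rest on few tags, from 1 to 10 per library. The call was lost without a filter on low values (-2.878, adjusted p = 0.113) and with limma voom on tags (-3.848, adjusted p = 0.283). It was also lost without TMBIM6sh library 1 without RANKL (-2.851, adjusted p = 0.0937) or either TMBIM6sh library with RANKL (-2.875 and -2.88, adjusted p = 0.188 and 0.184). It was chosen here after its value was seen.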

How the results depend on the processing

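Of the 7941 genes, the number called for the difference of responses was 0 in the negative direction under every alternative run. In the positive direction it was 1 (Fgl2) with a pseudocount of 5 and 1 (Fgl2) with limma voom on recovered tags, and 0 under the others. Outside the 7941 genes, small RNAs such as Snora20 (-1.161 without a filter) and Mir7062 (3.386 without TMBIM6sh library 2 without RANKL) were called under some alternatives. With a replicate block 0 of the 7941 genes were called and Fgl2 had an adjusted p of 0.094; deviations of libraries with the same number correlated at -0.111 to 0.152, so the numbers were not taken to pair the libraries, and the block changed the call of no named gene's difference. RANKL counts with the block were 950 higher and 390 lower in NCsh and 765 and 647 in TMBIM6sh libraries. At an unadjusted p under 0.05, median-ratio scaling gave 376 positive and 241 negative genes, and leaving out each library gave 84 to 550 positive and 224 to 657 negative ones. For RANKL in NCsh libraries the counts were 640 higher and 250 lower without a filter, 636 and 773 with median-ratio scaling, and 425 to 889 and 176 to 513 when a library was left out. For RANKL in TMBIM6sh libraries leaving out a library gave 429 to 952 higher and 274 to 813 lower. The cause was not tested. Src, whose difference was near 0, changed sign with a pseudocount of 0.1 (-0.0076), with voom (-0.0082), and when NCsh library 1 without RANKL (-0.037), NCsh library 2 with RANKL (-0.031), TMBIM6sh library 2 without RANKL (-0.046) or TMBIM6sh library 2 with RANKL (-0.087) was left out. A group left with 1 library was assumed to vary like the others.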
